A study of Mus musculus with 4 samples.

Results

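The cells described here came from KPF1F2 tumours, passed an epithelial gate and carried a transcript of the engineered alleles. All had little Ager, the receptor that marks flat alveolar type 1 cells. They numbered 363 of the 13493 cells that passed the quality filter in all 4 libraries, 26 before depletion of leukocytes and endothelium and 337 after it. A member had at least 1000 unique molecular identifiers (UMIs, each 1 captured RNA molecule), at least 500 genes, at most 20% mitochondrial UMIs and no UMI of Ptprc, the leukocyte antigen CD45. It also had at least 2 UMIs of the epithelial genes Epcam, Krt8, Krt18 and Cdh1 together, and at least 1 UMI of the transgene features CRE-ERT2 or UPRT_short. Sftpc, surfactant protein C, had to stay under 5% of its UMIs and Ager under 500 when scaled to 1000000 UMIs. The members were thus chosen by measured UMI counts, so the levels of those genes, and of genes that go with them, are given as description only.

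KPF1F2 tumours were labelled Foxa1flox and Foxa2flox and carried p53frt and Rosa-FSF-CreERT2 among their engineered alleles. KP tumours shared those other alleles but were Foxa1flox/+ and Foxa2flox/+, so the controls also carried 1 floxed allele of each gene. All tumours were lung adenocarcinomas on a mixed 129/B6 strain background, started with Ad5-mSPC-FlpO, an adenovirus in which the Sftpc promoter drives Flp recombinase. All mice were given tamoxifen, which lets CreERT2 cut the floxed alleles, at 120 mg/kg in 4 daily injections at week 10, and tumours were collected at week 12. The model is thereby limited to tumours started where that promoter is active, and both genotypes carried CreERT2 and received the drug. Each genotype gave 1 library before and 1 after magnetic depletion of CD45+ and CD31+ cells, and the labels do not say whether both came from the same mice.

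Foxa1 and Foxa2 are forkhead transcription factors that open chromatin in lung, liver and gut, and the homeobox factor Nkx2-1 directs the lung programme with them. An alveolar type 2 cell makes surfactant and the lipid it contains, stores both in lamellar bodies and presents antigen on MHC class II. An alveolar type 1 cell is thin, carries water channels and caveolae, and forms the gas exchange surface. Between the 2 states, injured or transformed mouse alveoli hold transitional cells rich in keratins, S100 proteins and urokinase receptor, and mouse lung adenocarcinomas are known to pass into states marked by Hmga2, a chromatin protein of embryonic tissue, or by stomach and gut genes.

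UMIs of a gene were summed over the cells of a kind within a library and scaled to a total of 1000000 (CPM). Paired values below give the pre-depletion library and then the post-depletion library, and intervals are 95% and cover counting error only. Every group was a single library, so nothing was tested and each difference is one between libraries. A gene was compared when the mean of both sums reached 20 CPM in both states. It was counted as higher or lower when its log2 fold, with 1 CPM added to each side, was at least 1 in size (2-fold) with the same sign in both states. Members were set beside 3 other kinds of cell. These were 42 and 422 KPF1F2 cells of the same gate with Ager at or above 500 CPM (Ager-high), 54 and 437 KPF1F2 epithelial cells without a transgene UMI and with Sftpc at 5% or more (surfactant-high), and 99 and 490 KP cells of the same rule.

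Members were deep, with medians of 41871.5 and 35816 UMIs per cell, against 24081 and 25360 in Ager-high cells, 28907.5 and 18387 in surfactant-high cells and 27062 and 20671 in KP cells of the rule. The summed depth was 1291813 UMIs before and 15228455 after depletion, so pre-depletion levels rest on far fewer cells, and single cells weigh heavily in them. No member shared its barcode with a member of another library. The title of the KPF1F2 pre-depletion library begins with 18385 and the other 3 with 18836. Markers of other cell types were low: the 11 macrophage genes summed to 145 and 18.7 CPM in members against 27137 CPM in Ptprc-positive cells before depletion, the 5 endothelial genes to 21.7 and 3.41 CPM, and the 4 T and NK cell genes to 1.55 and 0.131 CPM. The 5 fibroblast genes summed to 267 and 64.5 CPM in members, against 153 and 135 CPM in Ager-high cells, 1.85 and 36.0 CPM in surfactant-high cells and 22.4 and 84.2 CPM in KP cells, and their part in the results was not tested. One pre-depletion member held 23056 of the 23096 Scgb1a1 UMIs and 4893 UMIs of Scgb3a1 among its 66837, both secretoglobins of club cells. The Scgb1a1 level before depletion is thus that of 1 cell. Aldh1a1, also of the club cell list, was higher in members than in each of the 3 other kinds of cell. It was raised in sub-clusters 1 and 3, described below, and not in sub-cluster 0, which held that cell. The sex-linked Xist was at 0 and 0.13 CPM in members and 671 and 518 CPM in KP cells, and Ddx3y at 36.4 and 25 CPM in members and 0 in KP cells, so sex and genotype cannot be told apart in the comparison with KP.

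The rule took 26 of 68 gated transgene-positive KPF1F2 cells before depletion (38.2%, 26.7 to 50.8 by Clopper-Pearson) and 337 of 759 after it (44.4%, 40.8 to 48.0). The same rule took 99 of 139 KP cells (71.2%, 62.9 to 78.6) and 490 of 625 (78.4%, 75.0 to 81.6). Low Ager was thus the rarer state among gated KPF1F2 cells and the commoner one among gated KP cells, in both depletion states. With the Ager limit at 1000 CPM the post-depletion KPF1F2 share was 52.7%, so which state was rarer there turned on the limit. Ager was at 0 UMIs in 15 and 166 members. Just inside the threshold, at 250 to 500 CPM, lay 2 and 46 members, and just outside it, at 500 to 1000, lay 4 and 63 cells, so cells lay close to the limit on both sides. Transgene status came from UPRT_short alone in 8 and 87 members, from CRE-ERT2 alone in 5 and 59, and from both in 13 and 191.

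The 2 genes given as marks of these cells did not behave alike. UPRT_short, an added feature that none of the KP cells of the rule had, was at 510.1 CPM (472 to 551) and 498 CPM (487 to 509) in members, against 231 and 176 CPM in Ager-high cells and 0 in surfactant-high cells and in KP cells. It was part of the rule, yet members had more of it than Ager-high cells, which had to meet the same rule. Hmga2 (ENSMUSG00000056758, chromosome 10, 120361275 to 120476469, minus strand, GRCm38) was at 3.1 CPM (0.84 to 7.93) and 55.2 CPM (51.6 to 59.1) in members, against 0 and 5.13 CPM in Ager-high cells, 0 and 0.1 CPM in surfactant-high cells and 125 and 178 CPM in KP cells. Its UMIs came from 2 pre-depletion and 72 post-depletion members, so Hmga2 marked a minority of them, and KP cells of the same rule had more.

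To compare shares of cells at 1 depth, each cell was thinned to 5000 UMIs, which left out 3 and 28 members. Hmga2 was then seen in 0 of 23 members before depletion, which allows up to 13.0% of cells with a UMI, and in 8.74% of 309 after it (5.84 to 12.5). The post-depletion shares elsewhere were 0.533% in Ager-high cells, 0.275% in surfactant-high cells and 27.6% in KP cells (23.4 to 32.1), and macrophages, which should lack the gene, had 0.273% before depletion at a median depth of 19478 UMIs. Hmga2 was thus above the background share in post-depletion members and lower there than in KP cells. Unthinned, 21.4% of post-depletion members had a UMI of Hmga2.

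Nkx2-1 (ENSMUSG00000001496, chromosome 12, 56531958 to 56536908, minus strand), the factor named in the series title, was detected in members at a level below both KPF1F2 alveolar kinds. It was at 71.2 CPM (57.4 to 87.3) and 79.4 CPM (75 to 84) in members, against 255 and 236 CPM in Ager-high cells, 197 and 162 CPM in surfactant-high cells and 136 and 84.7 CPM in KP cells. At 5000 UMIs, 39.1% and 30.4% of members had a UMI, against 65.8% and 68.3% of Ager-high cells, 69.2% and 54.5% of surfactant-high cells and 49.4% and 33.3% of KP cells, with 0.546% in pre-depletion macrophages. Post-depletion members and KP cells had shares whose intervals overlap (25.3 to 35.9 and 28.8 to 38.0), while both KPF1F2 alveolar kinds stood above. The features held 5 added pieces of Foxa1 and Foxa2, whose coverage of the genes is not stated. Foxa1_2 was at 3.87 and 0.53 CPM in members against 18.4 and 18.7 CPM in KP cells. Foxa1_1 was at 6.97 and 8.08 CPM in members against 3.97 and 2.25 CPM in KP cells, so these 2 pieces of Foxa1 went opposite ways. All 5 pre-depletion UMIs of Foxa1_2 came from 1 member, and the pieces of Foxa2 are not given here. Foxa3, a related forkhead factor, was at 11.6 and 11.3 CPM in members and 27 and 36.8 CPM in KP cells.

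**Figure D1:**
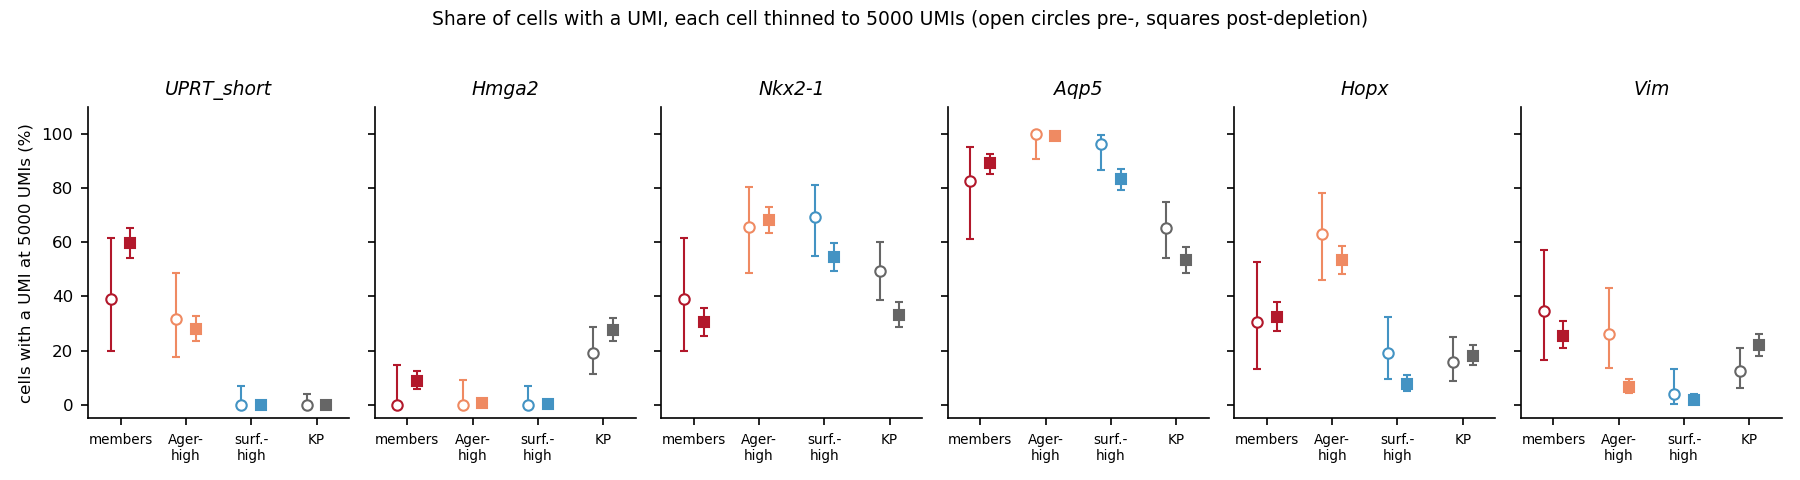
Share of cells with a UMI (%) after thinning each cell to 5000 UMIs, for 6 genes, in members, Ager-high, surfactant-high and KP cells of the rule; open circles are pre-depletion and squares post-depletion libraries, bars are 95% Clopper-Pearson intervals. Hmga2 was seen in 8.74% of post-depletion members and 27.6% of KP cells, and Nkx2-1 in 30.4% of post-depletion members and 68.3% of Ager-high cells.

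The first question was how much of the alveolar type 2 programme members kept. The list of 26 type 2 genes without Sftpc, 25 in all, took a median of 2547 and 2099 CPM of a member, against 27144 and 25431 of an Ager-high cell, 122632 and 108327 of a surfactant-high cell and 5730 and 4255 of a KP cell. The 20 transitional genes outside the rule went the other way, with medians of 48443 and 46942 CPM in members, 13015 and 11819 in Ager-high cells, 2124 and 1964 in surfactant-high cells and 35982 and 39904 in KP cells. The type 2 sum exceeded the transitional sum in 5 of 26 and 16 of 337 members, against 25 of 42 and 280 of 422 Ager-high cells, 54 of 54 and 436 of 437 surfactant-high cells, and 21 of 99 and 75 of 490 KP cells. On the type 2 side thus lay 4.75% of post-depletion members, fewer than the 15.3% of KP cells, but 19.2% of pre-depletion members, close to the 21.2% of KP cells, while Ager-high cells spread over both sides.

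**Figure D2:**
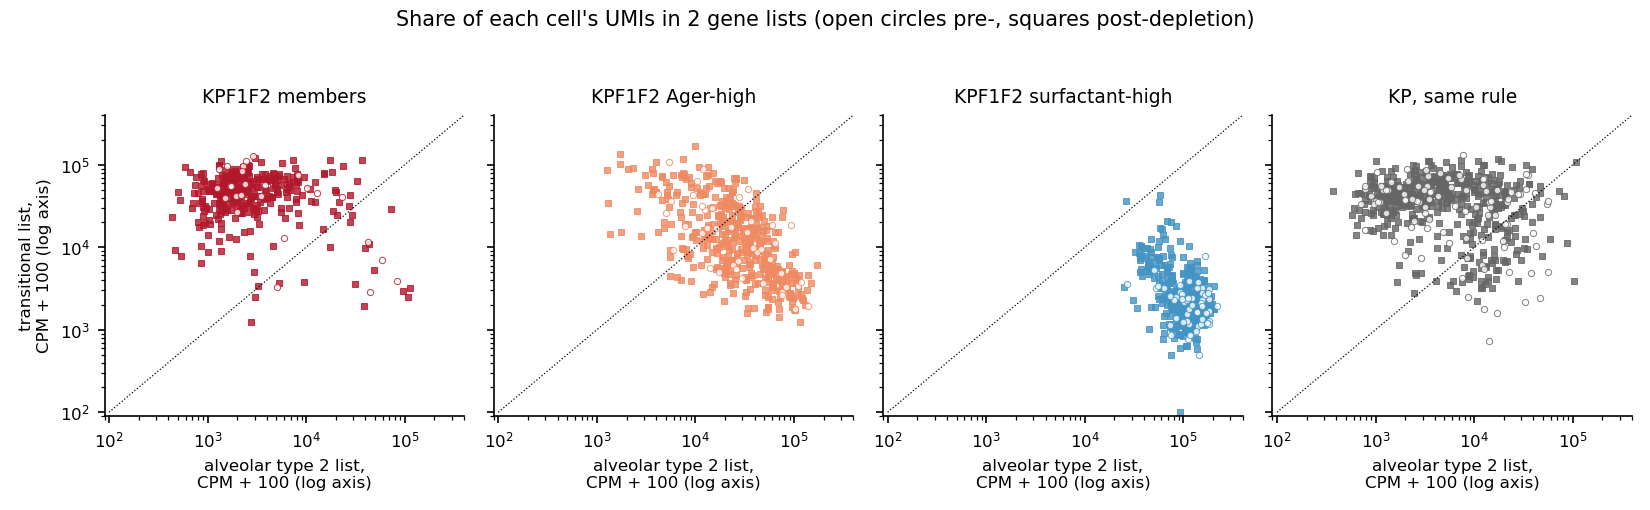
Each point is 1 cell, placed by the CPM of its type 2 list (x) and of its transitional list (y), both log axes with 100 added and without genes of the rule; open circles are pre-depletion and squares post-depletion cells, and the dotted line marks equal sums. Members cluster at the upper left, above the line in all but 5 pre-depletion and 16 post-depletion cells, and surfactant-high cells at the lower right.

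Against surfactant-high cells, 974 of 5100 genes compared were higher in members (19.1%) and 389 lower (7.63%). This contrast follows from the Sftpc and transgene limits, so nothing is read from the counts. Of 25 type 2 genes compared, 24 were lower in members, Sftpc of the rule among them, and none higher. The medians were -3.62 and -4.63 on the log2 scale. All genes together had medians of 0.43 and 0.55, and with TMM or DESeq2 factors, which bring those medians to between 0.07 and 0.15, the counts were 562 higher and 582 lower or 553 and 590. Lyz1, a lysozyme of type 2 cells, was at 0 and 7.68 CPM in members and 2303 and 3249 CPM in surfactant-high cells. Lamp3, a lamellar body protein, was at 95.2 and 13.2 CPM in members and 1382 and 1267 CPM in surfactant-high cells. Muc1, a mucin of many epithelia, was the 1 type 2 gene compared that was not lower. The genes furthest below surfactant-high cells were Lyz1, Sftpa1, Npw, Ppp1r14c, Kcne2, Retnla, Hc, Mfsd2a, Myh7, Cyp2b10, C6 and Itih4. Hc, complement component C5, was at 27.1 and 4.4 CPM in members and 1205 and 1495 CPM in surfactant-high cells, and Mfsd2a, a carrier of lysophospholipid, at 0.77 and 1.9 CPM in members and 123 and 124 CPM in surfactant-high cells.

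Surfactant protein genes differed in how low they were. Sftpb was at 1075 and 884 CPM in members, against 3756 and 3252 CPM in Ager-high cells, 12125 and 8316 CPM in surfactant-high cells and 5026 and 3093 CPM in KP cells. Sftpd, a collectin, was at 716 and 255 CPM in members, against 5488 and 6003 CPM in Ager-high cells, 8812 and 9784 CPM in surfactant-high cells and 799 and 559 CPM in KP cells. Sftpa1, the other collectin, was at 276 and 86 CPM in members, with 481 and 471 CPM in Ager-high, 26996 and 26512 CPM in surfactant-high and 2425 and 1198 CPM in KP cells. All 3 were lowest in members in each state. Napsa, the protease that trims surfactant protein B, was at 349.9 and 165 CPM in members, against 2664 and 2503 CPM in Ager-high cells, 3159.7 and 2699 CPM in surfactant-high cells and 84.9 and 54.9 CPM in KP cells, so members lay above KP cells here. Its UMIs were not those of 1 cell: 14 and 193 members had any, and the cell with the most gave 38.9% and 7.3%. The level was uneven, however. Over both libraries together Napsa was at 523 CPM in a sub-cluster of 92 members described below. In the other members it was at 77.1 CPM, beside the 84.9 and 54.9 CPM of KP cells.

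Many lipid and antigen-presentation genes were also lower in members than in surfactant-high cells. Scd1 and Fasn, given below, belong to the type 2 list as well, so the lists overlap. Of 16 fatty acid and sterol synthesis genes compared with surfactant-high cells, 13 were lower and none higher. Scd1, the desaturase that makes monounsaturated fat, was at 354 and 195 CPM in members, against 2193 and 2124 CPM in Ager-high cells, 9227 and 7600.1 CPM in surfactant-high cells and 78.1 and 64.5 CPM in KP cells. Fasn, fatty acid synthase, was at 56.5 and 38.5 CPM in members, against 237 and 229 CPM in Ager-high cells, 1199 and 974 CPM in surfactant-high cells and 70.1 and 57 CPM in KP cells. All 6 MHC class II genes compared were lower in members. Cd74, the invariant chain, was at 1311 and 517 CPM in members, against 13454 and 10364 CPM in Ager-high cells, 7819 and 6162 CPM in surfactant-high cells and 593 and 434 CPM in KP cells. Class II levels were also uneven among members, whose per-cell sums ran from 0 to 15008 CPM before depletion and from 0 to 24552 after it, with medians of 274 and 136.

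Ager-high cells share the genotype, the transgene rule and the library, and the 500 CPM limit divides them from members. Of 5450 genes compared, 250 were higher in members (4.59%) and 350 lower (6.42%), counts that the Ager limit shaped and from which nothing is read. Of 24 type 2 genes compared, 20 were lower, Sftpc of the rule among them, and none higher, with medians of -1.64 and -2.96. All 7 MHC class II genes and 9 of 13 MHC class I genes were lower, and none of either was higher. The genes lowest against Ager-high cells, after Lyz1, were Tmod1, Bcan, Fbln5, Fhad1, Tmem37, Col4a3, Col4a4, Hsd11b2, Mme, Ptgs1 and Porcn. Mme, the membrane peptidase neprilysin, was at 39.5 and 33.1 CPM in members and 433 and 561 CPM in Ager-high cells, and Col4a4, a basement membrane collagen chain of the alveolus, at 5.42 and 10.4 CPM in members and 110.3 and 145 CPM in Ager-high cells.

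The type 1 programme divided. Ager itself, which the rule used, was at 49.5 and 65.7 CPM in members and 2868 and 3007 CPM in Ager-high cells. Of 20 type 1 genes compared, 7 were lower in members than in Ager-high cells (Ager, Col4a3, Col4a4, Akap5, Hopx, Timp3 and Limch1) and Krt7 alone was higher, with list medians of -0.51 and -0.38. Hopx, a homeodomain-only protein of type 1 cells, was at 85.9 and 67.4 CPM in members, against 523 and 259.6 CPM in Ager-high cells, 124 and 36.2 CPM in surfactant-high cells and 48.5 and 42.6 CPM in KP cells. Aqp5, the water channel of type 1 cells (ENSMUSG00000044217, chromosome 15, 99590782 to 99594829, plus strand), was at 3103 CPM (3007 to 3200.2) and 2986 CPM (2958 to 3013) in members, close to 2698 and 2806 CPM in Ager-high cells, and against 811 and 643 CPM in surfactant-high cells and 449.6 and 382 CPM in KP cells. Aqp5 was found in 22 and 321 members, but its level was uneven. It was at 11395 CPM in a sub-cluster of 95 members described below and at 1555 CPM in the other members, both libraries together. In that sub-cluster Ager was thus low where Aqp5 was not, while the other members lay below the Aqp5 level of Ager-high cells. Pdpn, the mucin-type protein podoplanin, was at 76.6 and 74.7 CPM in members and 192 and 149 CPM in Ager-high cells, and Cav1, the caveolar coat protein, at 105 and 109.9 CPM in members and 49.7 and 57.9 CPM in Ager-high cells. Against surfactant-high cells, 7 of 18 type 1 genes were higher and 4 lower, and the pre-depletion list median of 0.32 turned to -0.02 under TMM scaling.

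Keratin and transitional genes were high where the alveolar genes were low. Of 21 transitional genes compared, 10 were higher in members than in Ager-high cells and 1 lower, with medians of 0.89 and 1.32 (all genes, 0.04 and 0.10). Against surfactant-high cells 19 of 21 were higher and none lower, with medians of 3.98 and 3.93. Krt8 and Krt18 are in that list and in the rule. Krt7, a keratin of simple glandular epithelium (ENSMUSG00000023039, chromosome 15, 101411043 to 101430313, plus strand), was at 8469.5 CPM (8312 to 8629.7) and 8987 CPM (8939.7 to 9035) in members, against 3323 and 3275 CPM in Ager-high cells, 253 and 226 CPM in surfactant-high cells and 4752 and 4299.9 CPM in KP cells. S100a6, a calcium-binding protein, was at 17147 and 17033 CPM in members, against 4845 and 4910.4 CPM in Ager-high cells, 89.6 and 176 CPM in surfactant-high cells and 10019 and 9438 CPM in KP cells. Both were highest in members in each state.

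Plaur, the urokinase receptor, was at 301 and 252 CPM in members, against 45.5 and 28.9 CPM in Ager-high cells, 8.04 and 2.7 CPM in surfactant-high cells and 264 and 257 CPM in KP cells. Tnfrsf12a, the receptor of the cytokine TWEAK, was at 927 and 1070.4 CPM in members, with 225 and 331 CPM in Ager-high, 60.6 and 73.7 CPM in surfactant-high and 843 and 1019 CPM in KP cells. Cdkn1a, the cell cycle inhibitor p21, was at 328 and 371 CPM in members, against 151 and 157 CPM in Ager-high cells, 94.6 and 118 CPM in surfactant-high cells and 347 and 362 CPM in KP cells. For these 3 genes members and KP cells lay close together, and both KPF1F2 alveolar kinds lay below them. Itgb6, the integrin chain that activates TGF-beta, was the transitional gene lower in members, at 32.5 and 36.1 CPM against 129 and 126 CPM in Ager-high cells.

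**Figure D3:**
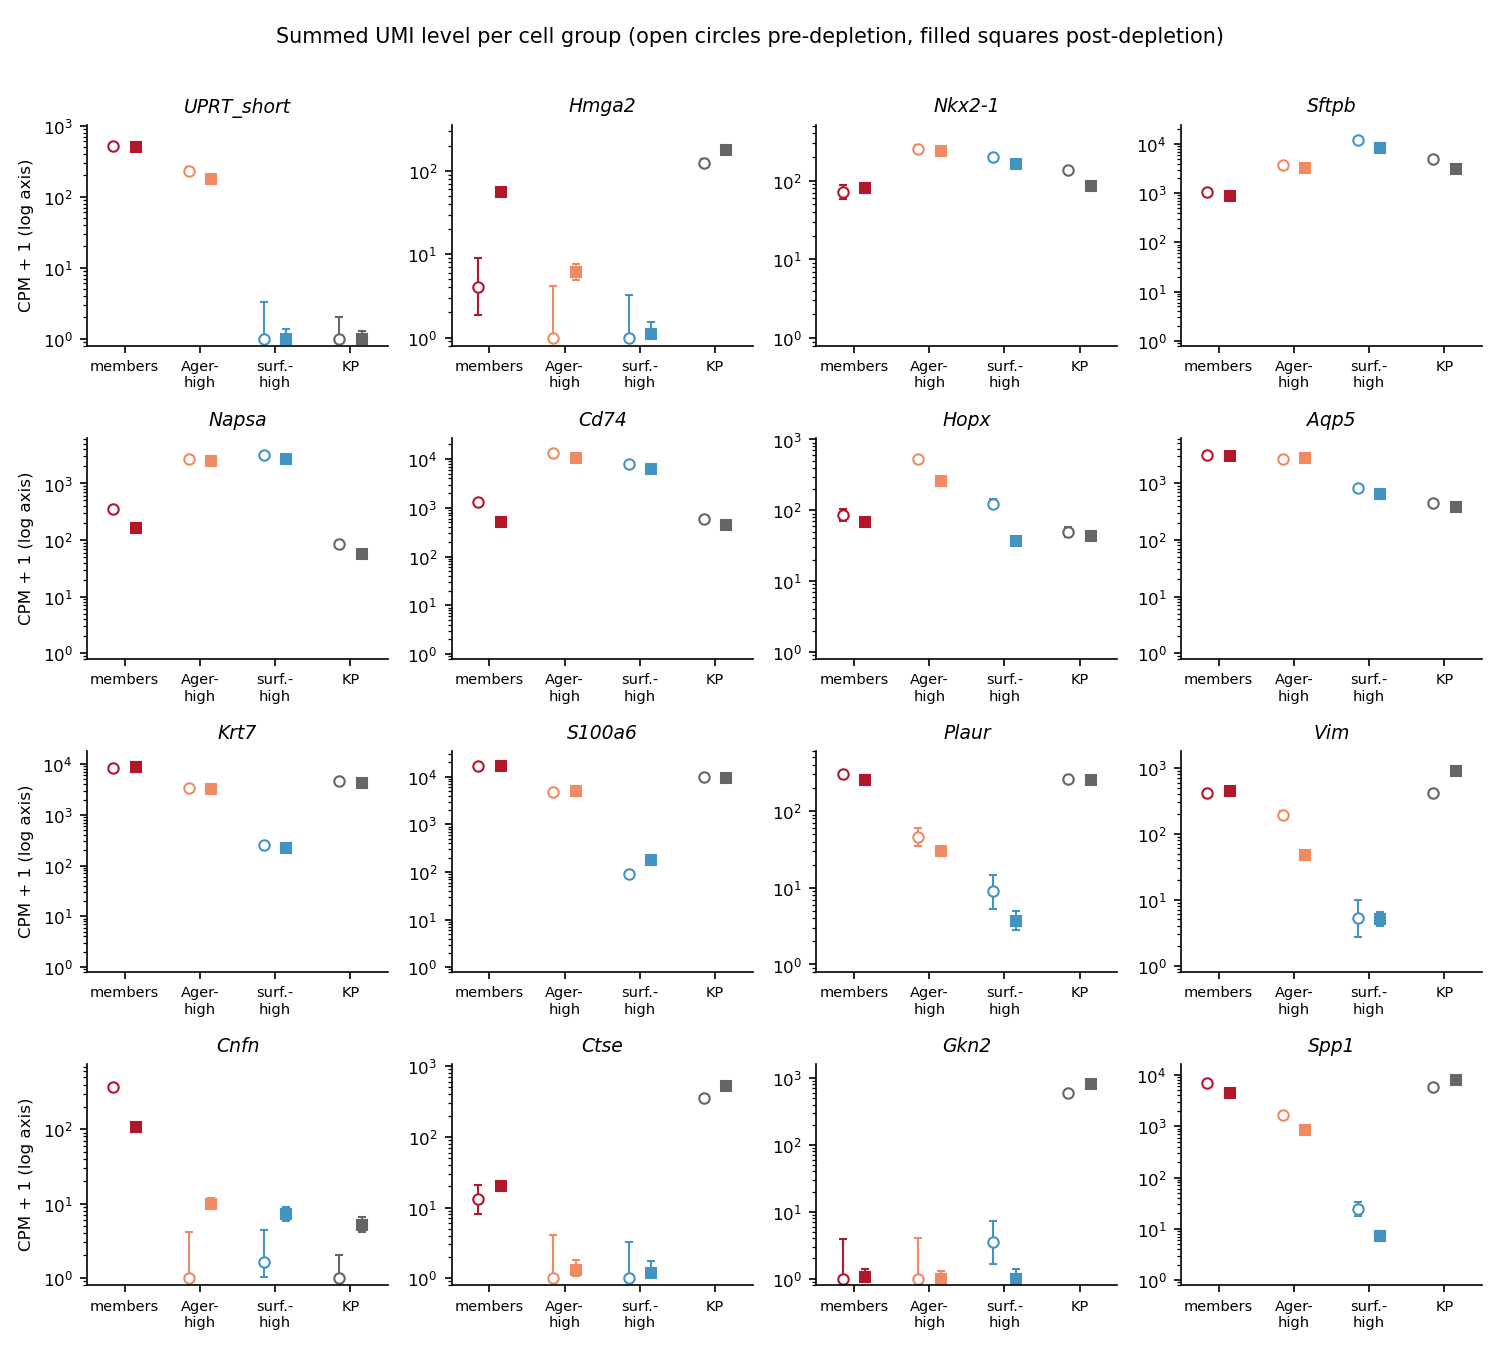
Summed level of 16 genes (CPM with 1 added, log axis) in members, Ager-high, surfactant-high and KP cells of the rule; open circles are pre-depletion and filled squares post-depletion libraries, and bars are 95% Poisson intervals. Sftpb, Napsa, Cd74 and Hopx lie lower in members than in Ager-high cells, Krt7 and S100a6 stand highest in members, and Gkn2 and Ctse stand highest in KP cells.

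Squamous genes were in part higher than in Ager-high cells, and mesenchymal genes were divided, beside 4.59% of all genes higher and 6.42% lower. Of 8 squamous genes compared 4 were higher and none lower: Cnfn, Serpinb5, Serpinb2 and Perp. Cnfn, cornifelin of the cornified envelope, was at 374 and 107 CPM in members, against 0 and 8.98 CPM in Ager-high cells, 0.62 and 6.2 CPM in surfactant-high cells and 0 and 4.19 CPM in KP cells. Of the basal cell genes, Trp63 and Krt5 were nearly absent, with Trp63 at 0 and 0.53 CPM and Krt5 at 2.32 and 7.62 CPM. In the post-depletion library 1 cell held 98.3% of the Krt5 UMIs. The keratins Krt14 and Krt17 were among the 10 squamous genes compared with KP cells, and both were lower in members. Cnfn, Serpinb2 and Serpinb5 were higher in that comparison. Of 8 mesenchymal genes compared, 3 were higher (Spp1, Fn1 and Vim) and 2 lower (Tgfb2 and Sparc). Vim, the intermediate filament vimentin, was at 419 and 449 CPM in members, against 195 and 47.2 CPM in Ager-high cells, 4.33 and 4.1 CPM in surfactant-high cells and 415 and 897 CPM in KP cells, and its UMIs came from 13 and 137 members.

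Integrin chains were divided, and the collagens counted were lower. Of 17 matrix and integrin genes compared with Ager-high cells, Itgb4, Itga2 and Itga6 were higher, and Itga7, Itgb6, Col4a1, Col4a2, Col6a1 and Col6a2 were lower. Itgb4, the hemidesmosome integrin chain, was at 40.3 and 58 CPM in members and 2.53 and 5.69 CPM in Ager-high cells, with 0.62 and 0.50 CPM in surfactant-high and 62.2 and 79.2 CPM in KP cells. Itga2, a collagen receptor chain, was at 89 and 111 CPM in members and 9.26 and 27.9 CPM in Ager-high cells, with 0 and 0.30 CPM in surfactant-high and 153 and 116 CPM in KP cells. Col4a1, a basement membrane collagen, was at 173 and 177 CPM in members and 523 and 443 CPM in Ager-high cells. The 3 higher integrin genes lay between Ager-high and KP cells in level in both states.

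Signalling and metabolic lists moved in part. Among MAPK output genes, 4 of 14 were higher than in Ager-high cells (Emp1, Dusp5, Dusp4 and Fosl1) and 2 lower (Spry1 and Etv5). Emp1, an epithelial membrane protein, was at 1396 and 1339 CPM in members, against 138 and 313 CPM in Ager-high cells, 15.5 and 24.4 CPM in surfactant-high cells and 988 and 1157 CPM in KP cells. Spry1, a feedback inhibitor of receptor signalling, was at 34.8 and 19.6 CPM in members and 111 and 81.7 CPM in Ager-high cells. Of the integrated stress genes 3 of 8 were higher and none lower, led by Asns, asparagine synthetase, at 71.2 and 73.5 CPM in members and 7.58 and 17.9 CPM in Ager-high cells. Of 12 glycolysis and hypoxia genes, Slc2a1, Eno1 and Ndrg1 were higher and none lower, and Slc2a1, the glucose carrier GLUT1, was at 89.8 and 63.8 CPM in members and 30.3 and 18.4 CPM in Ager-high cells. YAP and TEAD targets were divided, 3 higher and 2 lower of 11, and none of 13 stress and immediate-early genes was counted either way.

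Of 22 transcription factors of lung and foregut compared with Ager-high cells, 6 were lower in members and 2 higher. Irx1 and Irx2, homeobox factors of alveolar cells, were among the lower, with Irx1 at 35.6 and 16.5 CPM in members, 214 and 189 CPM in Ager-high cells, 439 and 374 CPM in surfactant-high cells and 26.4 and 19.2 CPM in KP cells. Sox9, a factor of the embryonic lung tip and of many glandular progenitors, was higher, at 194 and 197 CPM in members, against 64.8 and 23.2 CPM in Ager-high cells, 3.71 and 10.8 CPM in surfactant-high cells and 41.4 and 82.1 CPM in KP cells. Sox9 was highest in members in both states and was found in 19 and 259 of them. Hmga1, the relative of Hmga2, was at 60.4 and 73.7 CPM in members, 18.5 and 23.1 CPM in Ager-high cells, 0 and 2.5 CPM in surfactant-high cells and 25.8 and 16.9 CPM in KP cells, again highest in members. The embryonic and progenitor list, which holds both Sox9 and Hmga1, was divided. Of 7 genes compared with Ager-high cells these 2 were higher and Cpm and Meg3 lower, with medians of -0.32 and -0.54. Of 9 compared with KP cells these 2 were higher and Meg3 and Hmga2 lower. Onecut2, a liver and endocrine factor, was at 123 and 120.5 CPM in members, against 0.84 and 12.2 CPM in Ager-high cells, 0 in surfactant-high cells and 289 and 285 CPM in KP cells.

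The genes furthest above Ager-high cells were Prl2c2, Cpe, Ltf, Ctla2a, Plat, Cnfn, Upk3bl, Onecut2, Cysrt1, Itgb4, Ifi202b and Cldn6. Cpe, the prohormone-cutting carboxypeptidase E, was at 245 and 153 CPM in members, against 0 and 11.3 CPM in Ager-high cells, 0 and 0.50 CPM in surfactant-high cells and 80.0 and 219.8 CPM in KP cells. Cldn6, a tight junction protein of embryonic epithelium, was at 88.2 and 48.8 CPM in members, against 0.84 and 4.97 CPM in Ager-high cells, 0 and 0.50 CPM in surfactant-high cells and 51.1 and 53.1 CPM in KP cells. Ltf, the iron-binding protein lactoferrin, was at 815 and 126 CPM in members, against 1.68 and 9.3 CPM in Ager-high cells, 1.85 and 0.30 CPM in surfactant-high cells and 8.23 and 15.3 CPM in KP cells, and 1 cell in each library gave 57.8% and 19.8% of the member UMIs. Cpe and Cldn6 were spread over 11 and 148 and over 13 and 132 members.

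The genes that stood furthest above surfactant-high cells were Mcpt1, Spp1, Mcpt8, Fbln2, Msln, Gzme, Ctla2a, Serpinb2, Onecut2, Sdcbp2, Mcpt2 and Cpe. Spp1, the secreted phosphoprotein osteopontin, was at 6920.5 and 4381 CPM in members, against 1655 and 835 CPM in Ager-high cells, 23.5 and 6.2 CPM in surfactant-high cells and 5808 and 8041 CPM in KP cells. Msln, mesothelin, was at 523 and 654 CPM in members, against 116 and 116 CPM in Ager-high cells, 0 and 2.4 CPM in surfactant-high cells and 114 and 297 CPM in KP cells, while the other 3 mesothelial markers were at 0 before depletion and all 4 were detected after it, Upk3b, a uroplakin of mesothelium, at 12.2 CPM. The part of mesothelial cells was not tested. Mcpt1, a mast cell protease, was at 1815 and 1322 CPM in members, against 74.1 and 362 CPM in Ager-high cells, 1.24 and 2.3 CPM in surfactant-high cells and 974 and 1238 CPM in KP cells. It came from 7 and 140 members, and the mast cell genes Cpa3, Fcer1a, Ms4a2 and Tpsb2, looked up after these levels were seen, were at 0 UMIs in members of both libraries. Of 3 more mast cell genes looked up, Cma1 had 5 UMIs in 4 post-depletion members, Gata2 had 1 UMI there, and Kit had 3 UMIs in 1 pre-depletion member.

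**Figure D4:**
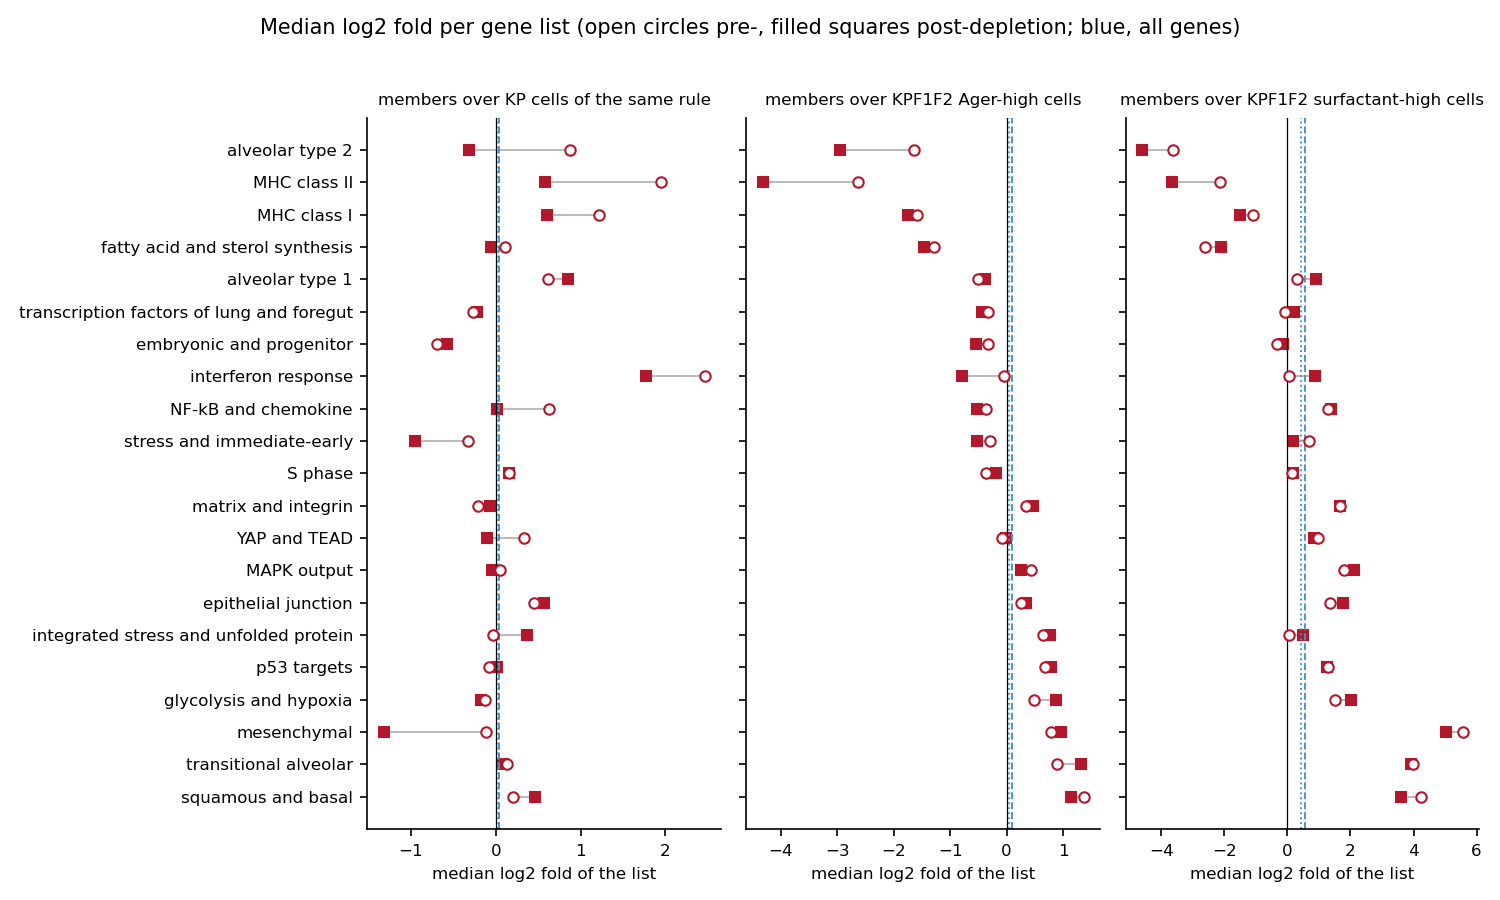
Median log2 fold of gene lists with at least 3 genes compared. Members are set over KP cells of the rule (left), Ager-high cells (middle) and surfactant-high cells (right). Open circles are pre-depletion and filled squares post-depletion libraries. Blue dotted and dashed lines give the median of all genes compared in each. The club cell, gastrointestinal and G2 and M phase lists are not drawn. The type 2 list lies at -1.64 and -2.96 over Ager-high cells and at -3.62 and -4.63 over surfactant-high cells, and the interferon response list at 2.47 and 1.78 over KP cells. The club cell list, which is not drawn, swung most between states, at 5.15 and -1.48 over KP cells. Nearly all its pre-depletion Scgb1a1 UMIs were those of 1 cell.

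The comparison with KP cells of the same rule asks what distinguished Ager-low cells of KPF1F2 tumours from Ager-low cells of control tumours, and the rule was the same on both sides, although KP cells met its transgene condition through CRE-ERT2 alone. Of 5475 genes compared, 128 were higher in members (2.34%) and 158 lower (2.89%). All genes together had medians of 0.02 and 0.04. Of 21 transitional genes 1 was higher (Nupr1) and 3 were lower (Tm4sf1, Areg and F3), with medians of 0.14 and 0.09. Krt7 and S100a6, given above, were higher in members by less than 2-fold in at least 1 state and so were not counted. No gene of the junction, p53, integrated stress or MHC class II lists was counted as higher or lower. The summed levels of all 5 class II genes compared were nonetheless above KP cells in both states, with medians of 1.95 and 0.58. Single cells went the other way. The per-cell class II sum had medians of 274 and 136 CPM in members, below 308.5 and 249 CPM in KP cells. The summed levels were uneven among members, with Cd74 at 1663 CPM in a sub-cluster of 92 members described below and 258 CPM in the others. Cells with a UMI of Mki67 or Top2a, genes of dividing cells, made up 3.85% and 5.64% of members against 6.06% and 8.16% of KP cells.

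Several gastrointestinal and neuropeptide transcripts of KP cells were low in members. Of 7 gastrointestinal genes compared, 4 were lower in members and none higher, with medians of -4.73 and -3.54. Gkn2, the stomach protein gastrokine 2 (ENSMUSG00000030049, chromosome 6, 87373357 to 87379497, plus strand), was at 0 and 0.0657 CPM in members and 586 and 798 CPM in KP cells, at least 252-fold lower before depletion against a floor of 3 counts per library. Ctse, the gastric protease cathepsin E, was at 12.4 and 19 CPM in members and 355 and 530.1 CPM in KP cells. Hnf4a, a nuclear receptor of liver and gut, was at 0 and 1.05 CPM in members and 41.2 and 40.3 CPM in KP cells, and Lgals4, a lectin of gut epithelium, at 1.55 and 2.63 CPM in members and 86.6 and 41.1 CPM in KP cells. Hnf4a was thus found in 8 of 337 post-depletion members and in none before depletion.

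The 12 lowest genes by the naming rule were Npy, Pyy, Qrfp, Apob, Ctse, Hnf4a, Gpa33, Prrx2, Lgals4, Tm4sf1, Aldh1a3 and Fermt1. Npy, neuropeptide Y, had no UMI in members and was at 108 and 392 CPM in KP cells, at least 1987-fold lower after depletion. Pyy, the gut hormone peptide YY, was at 0 and 0.26 CPM in members and 105 and 102 CPM in KP cells, and Qrfp, a hypothalamic neuropeptide, at 0 and 0.0657 CPM in members and 60.7 and 174 CPM in KP cells. Apob, the apolipoprotein of liver and gut lipoproteins, was at 0 and 4.2 CPM in members and 132 and 235 CPM in KP cells. Tm4sf1, a membrane protein of the transitional list, was at 64.3 and 67.4 CPM in members and 727 and 1083 CPM in KP cells, and Meg3, an imprinted non-coding RNA, at 6.19 and 10.7 CPM in members and 1056 and 1063 CPM in KP cells. Ager-high cells also had 0 UMIs of Npy and 0 of Gkn2, so the absence of those transcripts was not particular to members among transgene-positive KPF1F2 cells.

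Promoters were searched for the letters that forkhead factors of this class are known to favour, TGTTTAC and TGTTTGC, on both strands of the 250 bases before the RefSeq start of each gene (GRCm38.p6). Either was in 7.29% of 32851 promoters, TGTTTAC in 3.17% and TGTTTGC in 4.3%. Of the 12 named lower genes and Gkn2, 11 had a promoter in the table and 4 held a match. Of the 12 named higher genes 9 had a promoter there and none held a match. Gkn2 was not among the 12 lower genes of the naming rule. It was added to the lower side only and is among the 4 with a match. The sides were thus not chosen alike, and nothing is read from their counts. The 4 promoters with a match are shown because the transcripts of their genes were lower in members than in KP cells. They lie at chr2:31810581-31810830, minus strand (Qrfp), chr12:7977427-7977676, plus strand (Apob), chr3:57301989-57302238, minus strand (Tm4sf1) and chr6:87373115-87373364, plus strand (Gkn2), are written 5′ to 3′ in the direction of the gene, and carry the match in capitals. A match is a description of letters and says nothing of binding.
Qrfp: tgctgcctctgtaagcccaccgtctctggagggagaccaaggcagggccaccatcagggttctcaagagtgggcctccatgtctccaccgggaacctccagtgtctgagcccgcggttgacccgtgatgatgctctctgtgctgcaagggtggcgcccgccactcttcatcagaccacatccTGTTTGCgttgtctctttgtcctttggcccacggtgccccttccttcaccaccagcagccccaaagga
Apob: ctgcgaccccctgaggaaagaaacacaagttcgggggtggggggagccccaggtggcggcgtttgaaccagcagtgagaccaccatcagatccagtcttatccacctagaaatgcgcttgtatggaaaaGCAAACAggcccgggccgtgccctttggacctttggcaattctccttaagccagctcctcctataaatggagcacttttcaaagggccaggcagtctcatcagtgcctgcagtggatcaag
Tm4sf1: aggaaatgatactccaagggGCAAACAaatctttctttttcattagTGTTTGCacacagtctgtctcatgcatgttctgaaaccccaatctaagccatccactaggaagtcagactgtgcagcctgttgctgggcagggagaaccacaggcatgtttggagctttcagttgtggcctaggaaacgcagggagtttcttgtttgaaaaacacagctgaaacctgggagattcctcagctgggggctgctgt
Gkn2: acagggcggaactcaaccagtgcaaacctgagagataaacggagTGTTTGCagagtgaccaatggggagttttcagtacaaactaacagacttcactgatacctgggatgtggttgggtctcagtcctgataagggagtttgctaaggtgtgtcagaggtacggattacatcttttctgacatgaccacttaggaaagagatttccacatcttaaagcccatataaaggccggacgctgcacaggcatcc
All 4 held TGTTTGC or its reverse complement GCAAACA, 68 bases before the start in Qrfp, 121 in Apob and 206 in Gkn2, and Tm4sf1 held both, the farther at 230.

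Members stood above KP cells in a part of the type 1 programme. Of 16 type 1 genes compared, Aqp5, Cryab, Cav1, Pdpn and Cav2 were higher and Vegfa lower, with medians of 0.61 and 0.85. The log2 folds of Aqp5 were 2.78 and 2.96. Cryab, a small heat shock protein, was at 537 and 516 CPM in members and 64.7 and 94.9 CPM in KP cells, and Cav1 at 105 and 109.9 CPM in members and 17.6 and 24.2 CPM in KP cells. Vegfa, the endothelial growth factor, was at 62.7 and 69.5 CPM in members and 273 and 268 CPM in KP cells. The type 2 list was split, with Scd1, Napsa, Sfta2 and S100g higher and Sftpc, Sftpa1, Fabp5 and Sftpb lower. Sftpc is a gene of the rule, so its level is description only. The medians of 0.88 and -0.31 differed in sign between the states.

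Most interferon response genes and part of the MHC class I genes were higher in members than in KP cells. Of 6 interferon response genes compared, Gbp2, Ifitm3, Isg15, Bst2 and Irf7 were higher and none lower, with medians of 2.47 and 1.78. Bst2, the surface protein tetherin, was at 143 and 142 CPM in members and 30.9 and 42.1 CPM in KP cells and was found in 20 and 249 members. Isg15, a ubiquitin-like protein, was at 276 and 57.5 CPM in members and 17 and 15.6 CPM in KP cells, and 1 cell in each library gave 55.6% and 15.9% of the member UMIs. Of 7 MHC class I genes, B2m, H2-D1 and H2-K1 were higher and none lower, with B2m, the light chain, at 437 and 278 CPM in members and 161 and 120.0 CPM in KP cells. B2m was higher still in the other KPF1F2 cells, at 1214 and 899 CPM in Ager-high and 1104 and 749 CPM in surfactant-high cells. The interferon response list was not ordered in this way. Of 8 genes compared with Ager-high cells 2 were lower in members, Ifi27l2a and Ifitm3, and of 7 compared with surfactant-high cells Gbp2 and Irf7 were higher and Ifi27l2a lower. Bst2 was at 261 and 188 CPM in Ager-high and 146 and 76.6 CPM in surfactant-high cells.

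The 12 highest genes by the naming rule were Prl2c2, Prl2c3, Cnfn, Fabp3, Serpinb2, Ctla2a, Gbp2, Upk3bl, Ltf, Wnt10a, Sdpr and Aqp5, and several rested on few cells. Fabp3, a fatty acid carrier, was at 45.7 and 54.2 CPM in members and 1.99 and 2.01 CPM in KP cells, but 1 cell in each library gave 93.2% and 87% of its UMIs. Ctla2a, a cysteine protease inhibitor, was at 3677 and 347 CPM in members and 0.57 and 23.9 CPM in KP cells, with 80.1% and 19.3% from 1 cell. Prl2c2 and Prl2c3, proliferins of the prolactin family, are near-identical copies between which reads can be split, and Prl2c2 was at 92.9 and 82.5 CPM in members and 0 and 2.25 CPM in KP cells. Serpinb2, the plasminogen activator inhibitor PAI-2, was at 459.8 and 189 CPM in members and 30.1 and 8.13 CPM in KP cells. The post-depletion values of Aqp5, Upk3bl, Wnt10a and Sdpr were spread most widely, over 321, 145, 100 and 222 members, with no cell above 8.03% of the UMIs. Upk3bl, a uroplakin-like protein, was at 79.7 and 76 CPM in members and 1.99 and 6.76 CPM in KP cells, and Wnt10a, a Wnt ligand, at 50.3 and 61.7 CPM in members and 4.26 and 7.17 CPM in KP cells.

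Within the members, clustering gave 5 sub-clusters of 92, 95, 41, 19 and 116 cells, each with cells of both libraries. Their leading genes are what the clustering used and are given as description with no test. They are called by number, since no alveolar or other cell type name was fixed for them, and levels below are over both libraries together. Raised and lowered mean 2-fold or more against all other members, among genes with a mean of at least 20 CPM.

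Sub-cluster 0 (92 cells, median 30380 UMIs) had most of the type 2 genes at a raised level. Of 22 type 2 genes 16 were raised, and so were all 5 class II genes and all 6 G2 and M phase genes, against 3.82% of all genes raised and 2.88% lowered. Sftpb was at 3208 CPM there and 215 CPM in other members, and Cd74 at 1663 and 258 CPM. Of 11 squamous genes 5 were raised (Krt14, Krt6a, Krt17, Ivl and Ly6d) and 3 lowered (Serpinb2, Serpinb5 and Cnfn). Spp1 was at 9645 and 3078 CPM and Mcpt1 at 3733 and 657 CPM, so surfactant and secreted products were high in the same sub-cluster, which does not show that they shared cells. It also held 11 of the 20 members with a UMI of Mki67 or Top2a and the barcode with nearly all Scgb1a1 UMIs, and 6 of its 10 leading genes were club cell genes, of which Scgb3a1, Bpifb1 and Bpifa1 came from 1 cell each. Markers of other cell types stood out here too. Of the fibroblast markers, Col3a1 was at 116 CPM there and 2.43 CPM in other members and Dcn at 141 and 5.57 CPM, found in 13 and 15 of the 92 cells, and the mesothelial marker Upk3b at 47.9 and 0.392 CPM, in 6 cells. The part of such cells in the raised genes was not tested.

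Sub-cluster 1 (95 cells, median 22869 UMIs) stood out by Aqp5 and a few genes of cornified epithelium. Of all genes 7.26% were raised there and 11% lowered, and of 17 type 1 genes 7 were raised and Cldn18 lowered. Aqp5 was at 11395 CPM there and 1555 CPM in other members, Hopx at 235 and 40.4 CPM, and Krt7 at 20874 and 6902 CPM. Cnfn was at 791 and 13.9 CPM, found in 63 of its cells, and Slurp1, a secreted Ly6-family protein of squamous epithelium, at 213 and 4.47 CPM. UPRT_short was at 1023 and 409 CPM. Spp1 was at 244 and 5323 CPM, Vim at 32.7 and 517 CPM and Mcpt1 at 27.7 and 1589 CPM. Of 8 interferon response genes 5 were raised, with Isg15 at 273 and 40.6 CPM. Of 9 squamous genes, however, Cnfn alone was raised and Ivl, Serpinb2 and Ly6d were lowered. Of 6 mesenchymal genes S100a4 was raised and Vim and Spp1 lowered, with Fn1 at 378 and 213 CPM. The 2 leading genes by fold, Crct1 and Bglap3, came from 4 and 2 cells.

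Sub-cluster 2 (41 cells, median 48429 UMIs) had as its leading genes by fold Derl3, Nppb and Gsta1, found in only 6, 7 and 8 cells, and then Mthfd2 and Asns, found in 35 and 36. Mthfd2, a mitochondrial folate enzyme, was at 201 CPM there and 33.2 CPM in other members, Asns at 248 and 44.2 CPM and Phgdh, the first enzyme of serine synthesis, at 239 and 58.3 CPM. Of 9 integrated stress genes 5 were raised and none lowered, against 3.24% of all genes raised and 4.45% lowered. Plaur was at 650.0 and 190.1 CPM and Cdkn1a at 673 and 317 CPM. None of its cells had a UMI of Mki67 or Top2a, and 17 of 21 type 2 genes were lowered.

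Sub-cluster 3 (19 cells, 18 of them post-depletion, median 43369 UMIs) had 5 gastrointestinal genes raised. Dmbt1, a mucosal scavenger protein, was at 2333 CPM there and 0.638 CPM in other members, and Rbp2, the intestinal retinol-binding protein, at 1037 and 1.28 CPM. Of 7 gastrointestinal genes at 20 CPM or more, Ctse, Cdh17, Agr2, Cldn2 and Pigr were raised and Psca lowered, against 8.7% of all genes raised and 5.96% lowered. Cldn2 and Pigr were also raised in sub-cluster 0, and Psca, a small surface protein of stomach and prostate, in sub-cluster 1, at 216 CPM there and 7.73 CPM in other members. Ctse was at 192 and 9.25 CPM, below the 355 and 530.1 CPM of KP cells. Hmga2 was at 168 and 45.0 CPM, Onecut2 at 925 and 77.8 CPM, and Nkx2-1 at 10.8 and 82.4 CPM. These 19 cells therefore had the highest Hmga2 and the lowest Nkx2-1 of the 5 sub-clusters.

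Sub-cluster 4 (116 cells, median 53200 UMIs) was the most numerous and the deepest, and had the fewest genes apart from the other members, 0.776% raised and 1.85% lowered. Serpinb2 was at 407 CPM there and 61.1 CPM in other members, Vim at 753 and 213 CPM, and Plat and Plau, the tissue and urokinase plasminogen activators, at 197 and 56.2 CPM and at 56.0 and 17.4 CPM. Tubb2b, a beta tubulin, was at 116 and 39.5 CPM. Its Krt7 and S100a6, at 7936 and 20671 CPM, stood beside 9714 and 14287 CPM in other members. Hmga2 was at 68.9 and 37.7 CPM and Nkx2-1 at 71.5 and 84.2 CPM.

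**Figure D5:**
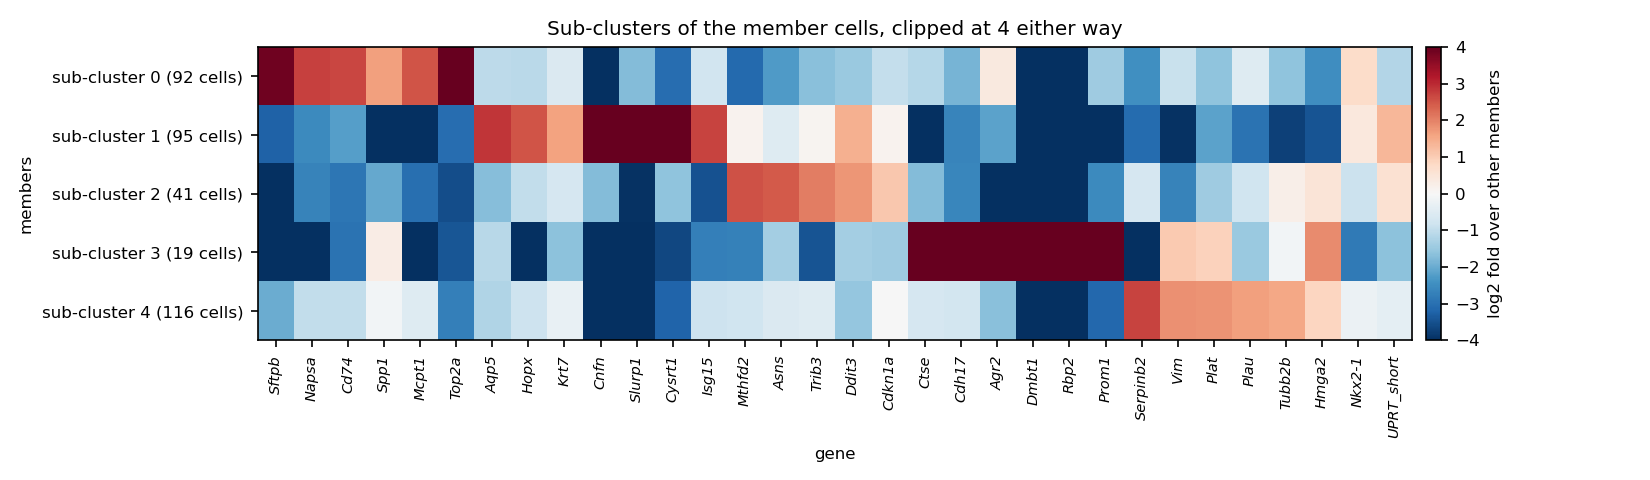
Log2 fold of the summed level in each sub-cluster (rows, with their number of cells) over all other members, for 32 genes (columns); red is higher and blue lower, with colours clipped at 4. Surfactant and class II genes stand out in sub-cluster 0, Aqp5 and Cnfn in sub-cluster 1, Mthfd2 and Asns in sub-cluster 2, Dmbt1 and Ctse in sub-cluster 3, and Serpinb2 and Vim in sub-cluster 4.

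Members of the 2 libraries were not alike in every gene. Among 5716 genes compared between the member sums of the 2 KPF1F2 libraries, 61 were 2-fold or more higher after depletion and 174 lower, against 47 and 21 of 5755 in KP cells. The KPF1F2 libraries also differed in title number (18385 and 18836), and the KP libraries did not. Before depletion 26 members stood beside 99 KP cells. The part of depletion in these differences was not tested. Sub-cluster 0 made up 24.3% of post-depletion and 38.5% of pre-depletion members. In members, Lamp3 was at 13.2 CPM after and 95.2 CPM before depletion, Slc34a2, a phosphate carrier of type 2 cells, at 52.1 CPM after and 317 CPM before it, and H2-Aa, a class II chain, at 66.3 CPM after and 363 CPM before it, all lower after depletion. Krt7, S100a6, Aqp5, Plaur and Sox9 differed by less than 2-fold between the states.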

How the data were processed

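The 4 libraries are deposited as count matrices, each value the number of UMIs of a gene in a barcode, produced, per the file headers, with Cell Ranger 6.0.0 from 10x 3′ version 3.1 libraries per the labels' protocols, and aligned to mm10 per the submitters' processing notes. The sources used here name no annotation and no strand setting. Positions of 27645 of 28006 features were taken from GENCODE mouse release 21 (GRCm38), and promoters from RefSeq (GRCm38.p6).

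The matrices held 47805086 and 62051171 UMIs for KPF1F2 and 63010016 and 58986043 for KP, before and after depletion. From the counts, cells were chosen by the rule given in the report, UMIs were summed per library and kind of cell, scaled to CPM and compared as log2 folds within a depletion state. Members and gene lists (25 lists, 12 marker sets) were chosen with earlier results of these data known. For each comparison the 12 highest and 12 lowest genes by the smaller of the 2 log2 folds were named, leaving out genes of the rule, gene models, ribosomal, mitochondrial and sex-linked genes and genes higher in Ptprc-positive cells. A further 18 genes, such as Hmga2, Nkx2-1 and Aqp5, could be named in any case, as could members of the lists. Intervals are exact Poisson for CPM and Clopper-Pearson for shares, and zeros carry an upper limit of 3 UMIs. PCR copies were merged by UMI, and intervals cover counting error only.

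Sub-clusters came from counts log-normalised to 10000 per cell, 2000 variable genes, 20 principal components, 15 neighbours and Leiden clustering at resolution 0.5 (scanpy 1.11.5, igraph 0.11.9), with no batch correction. The doublet caller scrublet marked 0.028% to 0.156% of cells per library at its automatic threshold, so it was taken not to have worked and no cell was removed; the alternative removed the 131, 91, 181 and 247 highest-scoring cells of KPF1F2 before and after and KP before and after depletion. Alternatives changed the scaling (TMM of edgeR 4.0.16, size factors of DESeq2 1.42.0, in R 4.3.3), minimum level, pseudocount, UMI minimum, transgene and Ager limits, doublets, free RNA and cycling cells. The comparison was run on simulated sums of members over KP cells with 5393 genes, where it recovered all 100 genes changed 4-fold and all 100 changed 8-fold. Those sums held counting error only, and the planted changes exceeded the 2-fold limit. The run thus checks the calculation and cannot show how differences between cells or libraries affect the calls. One gene of a list and 1 allele are not reported here.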

Additional observations from a re-analysis of the deposited data

How the results depend on the processing

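The post-depletion share of members among gated transgene-positive KPF1F2 cells was 52.7% with an Ager limit of 1000 CPM and 38.34% with 250; the other alternatives, and all of them before depletion, stayed within the counting interval. Counts of higher and lower genes against KP cells were 238 and 387 with a minimum of 5 CPM, 369 and 647 with none, and 218 and 299 with the post-depletion libraries alone. Against Ager-high cells they were 417 and 633 with 5 CPM and 588 and 843 with none, and 382 were higher post-depletion alone. Against surfactant-high cells they were 1539 and 682 with 5 CPM, 2007 and 963 with none, 562 and 582 when scaled by TMM, 553 and 590 when scaled by DESeq2, and 1473 were higher post-depletion alone; the scaling changes them because it moves the median of all genes. Lower minimums also brought in more genes, 9187 with 5 CPM and 14800 with none against KP cells, beside 5475 in the main comparison. How far that accounts for the changed counts was not tested. Unthinned, Hmga2 was seen in 21.36% of post-depletion members, Nkx2-1 in 84.61% before and 74.48% after depletion, and UPRT_short in 80.77% and 82.49%. Thinned to 2000 UMIs, post-depletion shares were 12.58% for Nkx2-1 and 41.72% for UPRT_short. Leiden resolution 1 gave 10 sub-clusters, which kept sub-clusters 2 and 3 whole but only 53.3%, 58.9% and 35.3% of the cells of 0, 1 and 4 together. Without cycle genes 51.1% and 62.9% of 0 and 4 and 97.9% of 1 stayed together. The pre-depletion club cell median reversed to -0.9032, -0.9876 and -1.147 against Ager-high cells and to -4.017, -4.101 and -3.994 against surfactant-high cells with CRE-ERT2 alone, without Mki67 or Top2a cells and without the member with most Scgb1a1, each of which leaves that member out. Over all alternatives 341 list medians and 394 named-gene folds moved and 1687 and 1766 did not, and no named gene reversed. The post-depletion, Scgb1a1 and 20000-UMI alternatives were chosen after seeing the data. No paired analysis was possible because each group had 1 library and the titles carry no replicate numbers. The pre-depletion values of members are limited by the number of cells, since 26 cells gave them.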
